A study of Homo sapiens with 12 samples.

Results

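Interferon response and antigen presentation genes were examined in HT-29, a widely used cell line from a human colorectal adenocarcinoma whose APC gene is mutated. The group held 34 genes, picked by symbol from the 25528 rows of the deposited expression table: class I heavy chains and their light chain, peptide loading genes, transcription factors, RNA sensors and interferon-induced effectors. All 34 were in the table. Lentivirus-infected cells gave 12 RNA-seq libraries, 3 in each of 4 groups. In the open reading frame arm, cells received virus encoding GFP (the control) or CTNNB1, the gene of beta-catenin, and were harvested 2 days after infection. In the hairpin arm, cells carried a control hairpin named shNT1 or a hairpin against APC, shAPC, and were harvested after 1 day of induction with 2 µM doxycycline. The study's title gives its question as the effect of WNT hyperactivation, by either route, on gene expression. All groups are 1 cell line, every group was infected with virus, and no uninfected group is analysed here. Nothing in the labels says that the 3 libraries of a group came from separate cultures, so p-values measure the spread between these libraries, which may be technical.

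Cells sense viral RNA through receptors such as RIG-I and MDA5, which signal to the transcription factors IRF3 and IRF7 and so to interferon genes. Secreted interferon then acts on its receptor, and a complex of IRF9 with STAT proteins binds the interferon-stimulated response element in the promoters of effector genes such as the IFIT, OAS and MX families. Interferon also raises the class I pathway, in which TAP transports peptides into the endoplasmic reticulum, tapasin loads them, and HLA heavy chains with B2M carry them to the cell surface.

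The perturbed genes were read first. APC averaged 16.4 ± 0.8 TPM (transcript abundance scaled for length and to 1 common total per library; SD, n = 3 here and below) in shNT1 and 5.99 ± 0.56 in shAPC. CTNNB1 averaged 146 ± 2.9 TPM in GFP and 160.1 ± 4.2 in the libraries labelled CTNNB1, a log2 fold change of 0.13 (SE 0.04, adjusted p = 0.0587) that was not called, although the groups did not overlap. How reads of the transduced reading frame were counted is not given in the sources used here, so this value may or may not include them. The label CTNNB1 is used below as the name of those libraries. Of 7 colon epithelium markers, whose summed level was 8521 to 12260 TPM in every library, none was at 0 in all libraries. KRT18 (3678 to 5721 TPM) and KRT8 (2541 to 3826 TPM) made up most of that sum, while CDX2 stayed between 0.163 and 0.875 TPM. Leukocyte markers summed to 6468 to 8022 TPM through LYZ, and the 9 others to between 1.63 and 3.60 TPM, with CD3E, MS4A1 and TYROBP listed at 0 in all 12 libraries. By group, those 9 summed to 2.26 to 2.97 TPM in GFP, 1.63 to 3.60 in CTNNB1, 2.18 to 3.30 in shNT1 and 2.49 to 2.77 in shAPC. The 7 fibroblast markers summed to at most 1.60 TPM and the 4 endothelial markers to at most 0.478 TPM in any library. No marker of these 2 lists was at 0 in all libraries either. In bulk RNA, fewer cells expressing a gene and less RNA per cell cannot be told apart.

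Genes were compared with limma on log2(TPM + 1) where their mean TPM over the libraries compared was at least 1, and were called at a Benjamini-Hochberg adjusted p under 0.05 over all genes tested. Fold changes are on that log2 scale and understate the change of weakly expressed genes. CTNNB1 libraries had higher levels of many effectors than GFP: of 26 members tested, 14 were called higher, where 16.3% of all 11624 genes tested were, and 2 were called lower, where 7.16% were. The median log2 difference was 0.24 over the members and 0.06 over all genes. In the hairpin arm the direction was mostly the other way. Of 30 members tested in shAPC against shNT1, 12 were called lower, where 14.9% of all 11834 genes were, and 1 was called higher, where 7.24% were. OAS2 passed the filter through shNT1 alone, and without it 11 of 29 were called lower. Here the median was -0.16 over the members and -0.04 over all genes.

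The widest gap lay between the control groups, GFP and shNT1, whose vector, collection day and doxycycline cannot be told apart. Of 30 members tested in GFP against shNT1, 24 were called lower, where 23.2% of all 11659 genes were. None was called higher by limma, where 9.92% of all genes were, and none was higher at an unadjusted p under 0.05. MX1, OAS2, ISG20 and IFITM1 passed the filter through shNT1 alone, and without them 20 of 26 were called lower. The median was -0.66 over the 30 members and -0.06 over all genes. This comparison shares its GFP libraries with the CTNNB1 comparison and its shNT1 libraries with the shAPC comparison, so the values are set side by side below and not combined. Median-ratio scaling, which centres the differences of all genes near 0, moved the share of all calls that were higher from 69.5% to 46.1% with CTNNB1, from 32.8% to 44.3% with shAPC and from 30.0% to 56.2% for GFP against shNT1. Under it, 11 members were called higher and 2 lower with CTNNB1, 0 higher and 8 lower with shAPC, and 1 higher (IRF3) and 21 lower in GFP against shNT1. Over all genes tested, these counts were 1252 higher and 1461 lower of 11617, 1264 and 1589 of 11835, and 2233 and 1743 of 11657, in the same order.

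In GFP against shNT1 most of the wide differences were those of membrane factors and effectors. The transcription factor IRF9 also differed widely, by -1.52 (SE 0.11, adjusted p = 5.82e-05). Among members averaging at least 1 TPM in both groups, IFI27 differed most, by -2.56 (SE 0.11, adjusted p = 9.4e-06). The log2 difference was -2.11 (SE 0.12, adjusted p = 1.86e-05) for IFITM3, -1.66 (SE 0.08, adjusted p = 1.01e-05) for IFI6 and -1.30 (SE 0.07, adjusted p = 1.86e-05) for IFIT2. It was -1.22 (SE 0.07) for IFI44, -1.18 (SE 0.08) for IFIT1, -1.10 (SE 0.06) for IFIT3, -1.01 (SE 0.13) for IFITM2 and -0.80 (SE 0.06) for DDX58. Of the members averaging at least 1 TPM in both groups, IFIT1, IFIT2, IFIT3, OAS1, OAS3, BST2, IFITM2, IFITM3, DDX58 and IFIH1 were called lower in GFP. So were IFI6, IFI27, IFI44, ISG15, IRF1, IRF2, IRF9, STAT2, HLA-E and B2M. The B2M call was kept in 2 of 6 alternative settings and with 2 of the 6 libraries left out in turn. That of STAT2 was kept in 4 of 6 settings and with 3 of the 6 libraries left out. That of IRF1 was kept in 5 of 6 settings and with 2 of the 6 libraries left out. The 6 members tested but not called were HLA-C (0.06), TAP2 (-0.06), TAPBP (-0.15), IRF3 (0.08), IRF7 (-0.14) and IFI35 (-0.13).

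**Figure D1:**
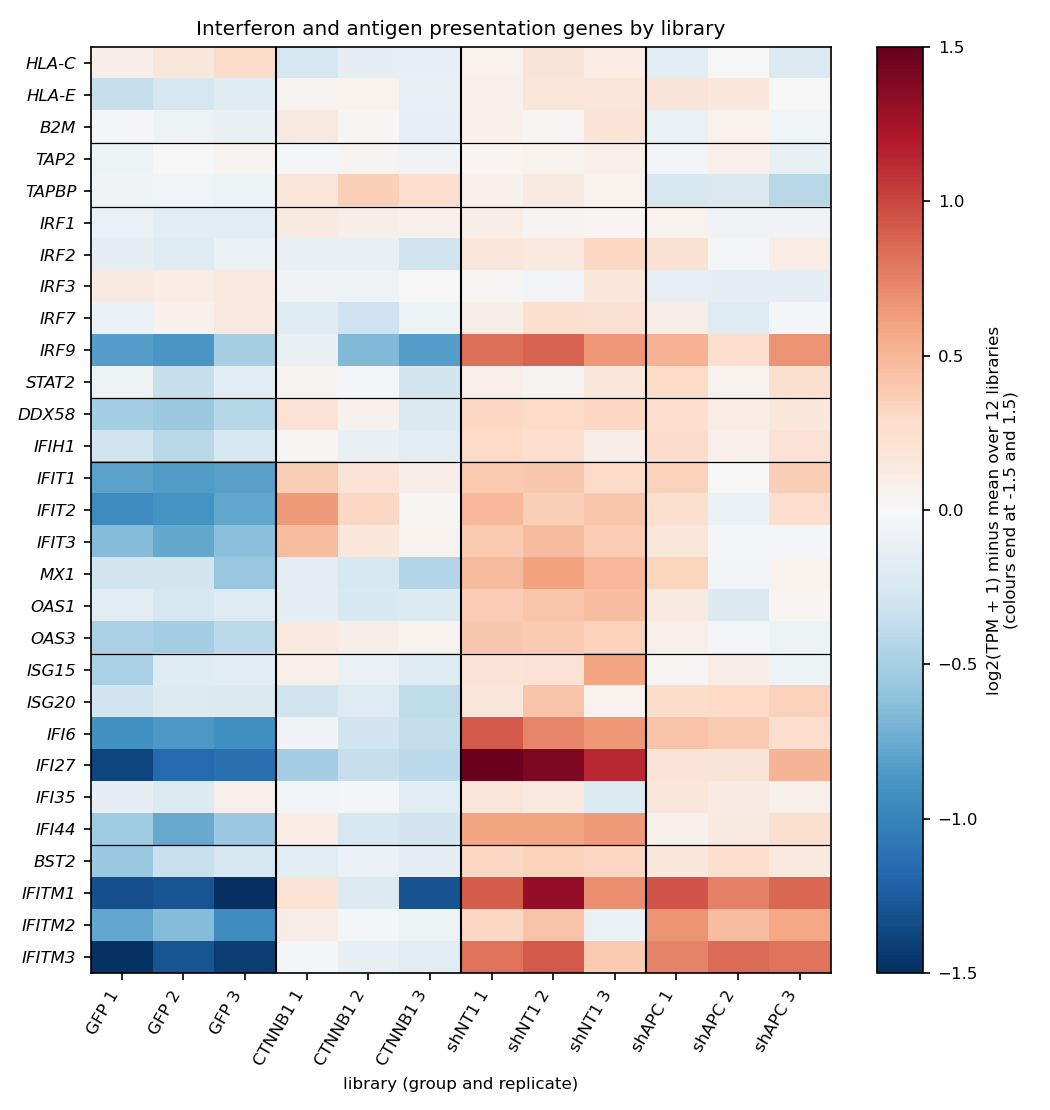
Members with a mean of at least 1 TPM over the 12 libraries (rows, ordered by role, lines between roles) in each library (columns); colour is log2(TPM + 1) minus the gene's mean over the 12 libraries. The IFIT genes, IFI6, IFI27, IFI44 and IFITM3 are lowest in the 3 GFP libraries, and IFI6, IFI27 and IFI44 are highest in the 3 shNT1 libraries.

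HLA-B, HLA-F, TAP1 and NLRC5 stayed under 1 TPM in every library and were tested nowhere. HLA-B, a classical class I heavy chain, ranged from 0.382 to 0.894 TPM, and HLA-F, a nonclassical one, from 0.215 to 0.549 TPM. TAP1, a subunit of the peptide transporter, ranged from 0.0945 to 0.420 TPM, and its 3 shNT1 libraries all lay above its 3 GFP libraries. NLRC5, the transactivator of class I genes, ranged from 0 to 0.0911 TPM. MX1, OAS2, ISG20 and IFITM1 were tested in the hairpin arm but averaged under 1 TPM over the GFP and CTNNB1 libraries.

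Among the class I genes, HLA-C fell in both arms while B2M was called in neither. HLA-C, a classical heavy chain, was at 12.1, 12.7 and 13.7 TPM in GFP, 9.16, 10.0 and 10.2 in CTNNB1, 11.7, 12.9 and 12.2 in shNT1, and 9.88, 11.1 and 9.53 in shAPC. Perturbed and control libraries did not overlap in either arm. The log2 fold change of HLA-C was -0.35 (SE 0.07, adjusted p = 0.00794) in the CTNNB1 arm and -0.25 (SE 0.08, adjusted p = 0.0462) in the shAPC arm, and the latter call was lost in 3 of 6 alternative settings and with 5 of the 6 libraries left out in turn.

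HLA-E, the ligand of an inhibitory natural killer cell receptor, went the other way in the first arm. It was at 7.79, 8.36 and 8.86 TPM in GFP, 10.5, 10.6 and 9.35 in CTNNB1, 10.7, 11.6 and 11.7 in shNT1, and 11.7, 11.5 and 10.2 in shAPC. The GFP libraries were the lowest, and shAPC and shNT1 overlapped. HLA-E rose by 0.26 (SE 0.08, adjusted p = 0.0401) in CTNNB1, a call lost in 3 of 6 alternative settings (adjusted p = 0.086 without the filter, 0.0773 under median-ratio scaling and 0.0582 with the replicate block) and with 5 of the 6 libraries left out in turn. B2M, the light chain shared by class I molecules, was far more abundant per length, at 699.7 ± 19.2 TPM in GFP, 743 ± 68 in CTNNB1, 787 ± 55 in shNT1 and 719.8 ± 37.5 in shAPC. In the authors' deposited table HLA-B, HLA-C, HLA-E, HLA-F, B2M and IFI27 carry identifiers that are not in the primary GENCODE v29 annotation, and how reads shared between such loci, or among class I genes, were assigned is not given in the sources used here.

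Of the peptide loading genes, tapasin moved in opposite directions in the arms. TAPBP, which encodes tapasin and lies on chromosome 6 at 33299694 to 33314387 (GRCh38, GENCODE v29), read 13.3, 13.3 and 13.0 TPM in GFP, 15.8, 18.0 and 16.6 in CTNNB1, 14.5, 15.3 and 14.4 in shNT1, and 11.5, 11.7 and 10.1 in shAPC. None of the 4 groups overlapped another: CTNNB1 was highest, then shNT1, GFP and shAPC. TAPBP rose by 0.32 (SE 0.07, adjusted p = 0.00678) with CTNNB1 and fell by 0.38 (SE 0.07, adjusted p = 0.00552) with shAPC. The difference between the arms was 0.70 (SE 0.10, adjusted p = 4e-04), tested as an interaction over all 12 libraries. TAP2, the other transporter subunit, lay between 1.16 and 1.47 TPM and was called nowhere.

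Transcription factors moved little within the arms. IRF3, to which the sensors signal, was the most abundant at 85.6, 84.0 and 86.0 TPM in GFP, 74.9, 75.1 and 77.6 in CTNNB1, 79.0, 75.6 and 87.7 in shNT1, and 71.3, 70.2 and 70.0 in shAPC. Both perturbed groups lay below their own control without overlap. IRF3 fell by 0.16 (SE 0.04, adjusted p = 0.0259) in the CTNNB1 arm and by 0.19 (SE 0.06, adjusted p = 0.0491) in the shAPC arm, where 4 of 6 alternative settings lost the call. The first call was lost without GFP replicate 1, 2 or 3 or CTNNB1 replicate 2, and the second with 5 of the 6 libraries left out in turn. IRF3 shares 734 exon bases with BCL2L12 on the opposite strand, and strandedness is not stated.

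IRF1, an interferon-induced activator of class I genes, read 12.3, 11.8 and 11.8 TPM in GFP, 14.7, 14.3 and 13.9 in CTNNB1, 14.3, 13.7 and 13.6 in shNT1, and 13.8, 12.7 and 12.8 in shAPC. GFP was the lowest group, and the hairpin groups overlapped. IRF1 rose by 0.24 (SE 0.06, adjusted p = 0.0209) in CTNNB1, and the adjusted p was 0.0509 under median-ratio scaling and lay between 0.055 and 0.0894 without GFP replicate 1, 2 or 3 or CTNNB1 replicate 2. IRF2 (13.7 to 21.5 TPM), IRF7 (2.01 to 3.41 TPM) and STAT2 (8.77 to 14.2 TPM) were not called in either arm.

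IRF9, the DNA-binding part of the interferon-activated complex, separated the arms rather than the groups within them. It was at 2.76, 2.64 and 3.72 TPM in GFP, 5.16, 3.22 and 2.77 in CTNNB1, 10.8, 11.3 and 9.44 in shNT1, and 8.60, 6.95 and 9.62 in shAPC. Every hairpin library lay above every open reading frame library, and the groups overlapped within both arms. The difference was 0.20 (SE 0.18, adjusted p = 0.445) in the CTNNB1 arm, -0.30 (SE 0.11, adjusted p = 0.0774) in the shAPC arm and -1.52 (SE 0.11, adjusted p = 5.82e-05) for GFP against shNT1. Another annotated gene shares 1838 exon bases with IRF9 on the same strand.

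The RNA sensors were lowest in GFP. DDX58, which encodes RIG-I, was at 5.94, 5.72 and 6.33 TPM in GFP, 10.4, 9.29 and 7.48 in CTNNB1, 11.2, 11.1 and 11.2 in shNT1, and 10.8, 9.64 and 9.98 in shAPC. GFP lay below all other libraries, and shAPC just below shNT1. DDX58 rose by 0.52 (SE 0.11, adjusted p = 0.00798) in CTNNB1 and differed by -0.13 (SE 0.07, adjusted p = 0.212) in shAPC. IFIH1, which encodes MDA5, averaged 6.49 ± 0.45 TPM in GFP and 7.80 ± 0.55 in CTNNB1, a difference of 0.23 that was not called (adjusted p = 0.0652). In the hairpin arm IFIH1 averaged 9.82 ± 0.74 TPM in shNT1 and 9.59 ± 0.71 in shAPC.

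**Figure D2:**
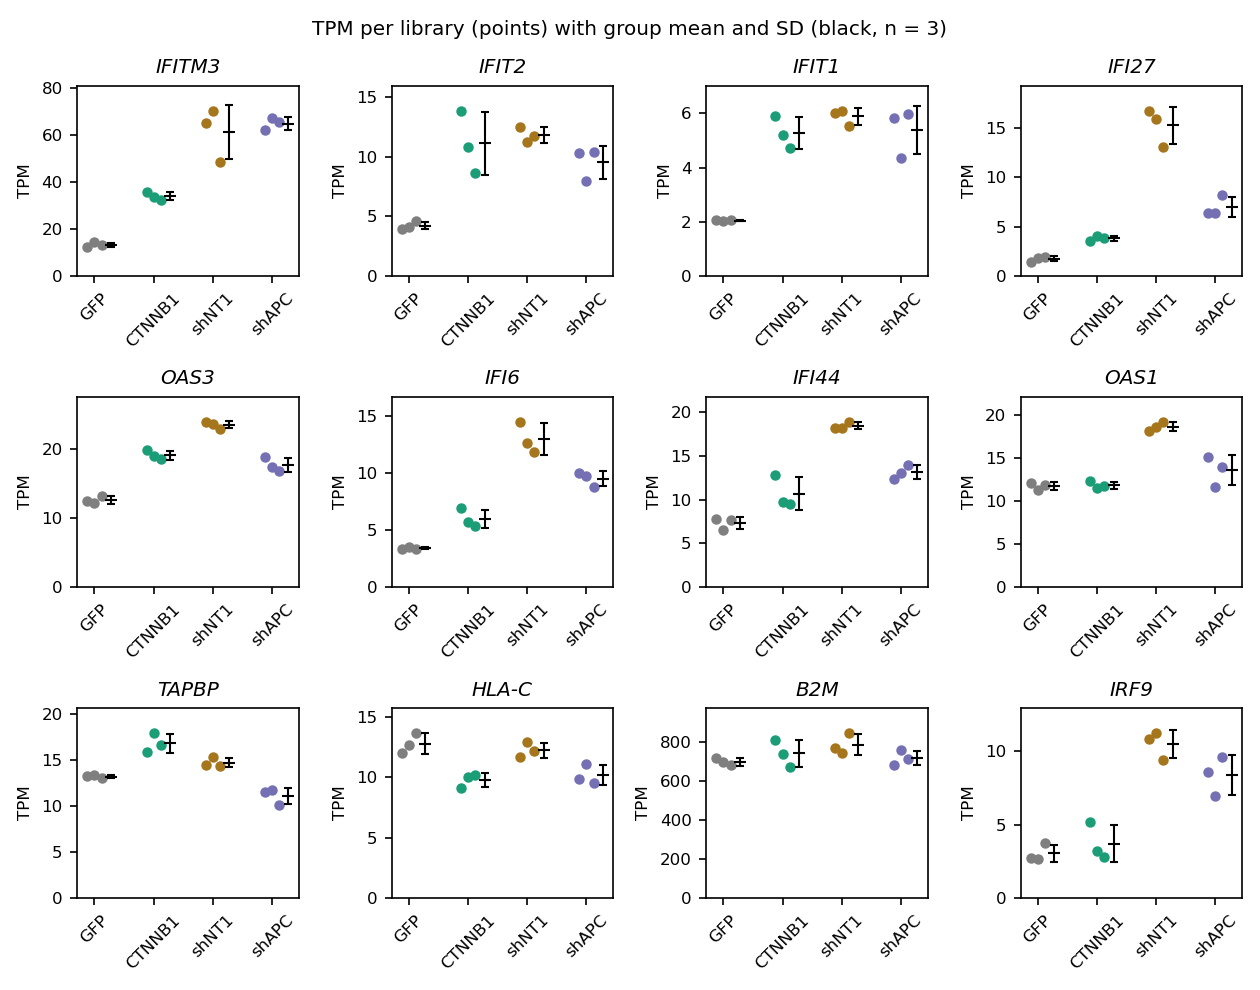
TPM of 12 members in each library (coloured points), with the mean and SD of each group of 3 libraries in black; every axis starts at 0. IFI27 and IFI6 are apart in all 4 groups, OAS1 overlaps between GFP and CTNNB1, and B2M overlaps within both arms.

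The IFIT genes, whose proteins bind viral RNA or partner with those that do, lie side by side on chromosome 10, with IFIT2 at 89283694 to 89309276, IFIT3 at 89327894 to 89340971 and IFIT1 at 89392546 to 89406486 (GRCh38, GENCODE v29). All 3 rose with CTNNB1. Promoter sequence of 4 of the members that changed most is shown here because it holds the response element that the interferon-activated complex binds. The windows are from RefSeq (GRCh38.p14), written 5′ to 3′ on the gene's strand, and end before the RefSeq start site, which for IFIT1 and IFIT3 lies inside the GENCODE span given above. Capitals mark the response element core, GAAANNGAAA or its reverse complement.
IFIT1 (chr10:89392462-89392574, plus strand): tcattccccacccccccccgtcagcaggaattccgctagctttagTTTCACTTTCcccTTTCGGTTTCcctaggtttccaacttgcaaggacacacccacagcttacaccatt
IFIT3 (chr10:89327796-89327929, plus strand): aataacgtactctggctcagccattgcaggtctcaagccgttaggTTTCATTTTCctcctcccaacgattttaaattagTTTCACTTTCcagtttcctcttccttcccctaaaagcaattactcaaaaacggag
IFI27 (chr14:94110583-94110695, plus strand): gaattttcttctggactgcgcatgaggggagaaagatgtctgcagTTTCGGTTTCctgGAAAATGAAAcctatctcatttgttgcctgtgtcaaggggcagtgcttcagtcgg
IFI6 (chr1:27672231-27672393, minus strand): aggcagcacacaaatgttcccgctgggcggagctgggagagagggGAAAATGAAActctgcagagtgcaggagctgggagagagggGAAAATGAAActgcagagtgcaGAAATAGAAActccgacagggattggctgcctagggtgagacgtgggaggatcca

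IFIT1, IFIT3 and IFI27 each hold 2 cores in the window shown and IFI6 holds 3. Promoters (250 bases before to 50 after a start) of 26 members were searched on both strands, and 18 held the core, which is 69.2%, where 4.38% of all 27305 genes of the RefSeq promoter set, a larger set than the expression table, did. The gamma-activated site core, TTCNNNGAA, was in 9 of the 26, which is 34.6%, where 9.38% of all genes held it. Members were picked as genes of the interferon response and antigen presentation, so high shares could follow from that choice alone. The 2 cores can overlap, as they do in IFI27. By role, the response element core was found in 3 of 3 peptide loading genes, 5 of 6 other induced effectors, 3 of 3 membrane factors with a promoter given, 4 of 5 IFIT, OAS and MX genes, 2 of 4 class I genes, 1 of 2 RNA sensors and 0 of 3 transcription factors. NLRC5, IRF2, IRF3, IRF7, HLA-E, IFIT2, OAS2 and IFITM2 were not searched.

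Members with and without the core were counted separately, as a description. The core was unevenly spread over the roles, so core and role cannot be told apart in these counts. In CTNNB1 against GFP, where 16.3% of all genes were called higher, 9 of 13 tested members with the core were called higher and 0 lower, with a median of 0.47, and 2 of 7 without it were called higher and 1 lower, with a median of 0.10. In shAPC against shNT1, where 14.9% of all genes were called lower, 8 of 16 with the core and 2 of 7 without it were called lower, with medians of -0.23 and -0.13. For GFP against shNT1, where 23.2% of all genes were called lower, 11 of 13 with the core and 5 of 7 without it were, among members averaging at least 1 TPM in both groups, with medians of -0.85 and -0.28.

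IFIT1 was at 2.07, 2.01 and 2.06 TPM in GFP, 5.92, 5.19 and 4.74 in CTNNB1, 6.03, 6.09 and 5.54 in shNT1, and 5.84, 4.35 and 5.97 in shAPC. Only GFP stood apart, and the other 3 groups overlapped one another. IFIT1 rose by 1.04 (SE 0.09, adjusted p = 7.51e-05) in CTNNB1, where its mean TPM was 2.58 times that of GFP, and differed by -0.12 (SE 0.11, adjusted p = 0.477) in shAPC.

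IFIT2 was also lowest in GFP, at 3.96, 4.12 and 4.58 TPM in GFP, 13.8, 10.8 and 8.64 in CTNNB1, 12.5, 11.2 and 11.7 in shNT1, and 10.3, 7.94 and 10.4 in shAPC. CTNNB1 spread over a wide range that overlapped both hairpin groups. IFIT2 rose by 1.19 (SE 0.14, adjusted p = 0.000292) in CTNNB1 and differed by -0.29 (SE 0.10, adjusted p = 0.0616) in shAPC, where the groups did not overlap.

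IFIT3, the partner that stabilizes IFIT1, was called in both arms. Its TPM was 6.71, 6.11 and 6.87 in GFP, 15.7, 12.6 and 11.5 in CTNNB1, 14.9, 15.8 and 14.8 in shNT1, and 12.6, 10.9 and 10.9 in shAPC. GFP was lowest, and shAPC lay below shNT1 without overlap. IFIT3 rose by 0.91 (SE 0.11, adjusted p = 0.000301) with CTNNB1 and fell by 0.38 (SE 0.08, adjusted p = 0.00647) with shAPC.

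The OAS genes encode enzymes that make 2′-5′ oligoadenylates in response to double-stranded RNA. They stand together on chromosome 12, with OAS1 at 112906777 to 112933222, OAS3 at 112938352 to 112973249 and OAS2 at 112978395 to 113011723. OAS1 and OAS3 fell with shAPC, as did OAS2, which entered that test through shNT1 alone, and only OAS3 was called in the CTNNB1 arm, where OAS2 was not tested. OAS3 was at 12.4, 12.1 and 13.2 TPM in GFP, 19.8, 18.9 and 18.5 in CTNNB1, 23.9, 23.6 and 22.9 in shNT1, and 18.8, 17.4 and 16.8 in shAPC. GFP was lowest and shNT1 highest, each apart from the rest, while CTNNB1 and shAPC overlapped. OAS3 rose by 0.56 (SE 0.06, adjusted p = 0.000231) in CTNNB1 and fell by 0.39 (SE 0.06, adjusted p = 0.00213) in shAPC.

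OAS1 read 12.1, 11.3 and 11.8 TPM in GFP, 12.3, 11.5 and 11.7 in CTNNB1, 18.2, 18.5 and 19.2 in shNT1, and 15.1, 11.7 and 14.0 in shAPC. GFP and CTNNB1 overlapped, and shNT1 stood above every other library. The log2 difference was 0.01 (SE 0.06, adjusted p = 0.934) in the CTNNB1 arm, and OAS1 fell by 0.44 (SE 0.09, adjusted p = 0.00652) in the shAPC arm.

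OAS2 was weak, at 0.136, 0.179 and 0.194 TPM in GFP, 0.682, 0.531 and 0.407 in CTNNB1, 1.78, 2.11 and 1.93 in shNT1, and 0.823, 0.599 and 1.14 in shAPC. The shNT1 libraries were highest, and GFP lay below CTNNB1. OAS2 fell by 0.67 (SE 0.14, adjusted p = 0.00739) with shAPC. MX1, a dynamin-like antiviral GTPase, was at 0.759, 0.753 and 0.429 TPM in GFP, 0.936, 0.800 and 0.558 in CTNNB1, 1.94, 2.22 and 2.00 in shNT1, and 1.67, 1.07 and 1.20 in shAPC. MX1 was highest in shNT1 and overlapped between GFP and CTNNB1. It fell by 0.41 (SE 0.13, adjusted p = 0.0476) with shAPC, a call kept in 1 of 5 alternative settings and lost with 5 of the 6 libraries left out in turn.

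Of the other induced effectors, IFI27 had the largest fall of the tested members with shAPC on the log2(TPM + 1) scale, while by the ratio of mean TPM OAS2 (0.441) lay slightly below it (0.458). IFI27, a small mitochondrial and nuclear envelope protein on chromosome 14, was at 1.46, 1.86 and 1.95 TPM in GFP, 3.50, 4.04 and 3.88 in CTNNB1, 16.7, 15.9 and 13.1 in shNT1, and 6.41, 6.34 and 8.16 in shAPC. The 4 groups did not overlap, rising from GFP through CTNNB1 and shAPC to shNT1. IFI27 rose by 0.80 (SE 0.10, adjusted p = 0.000576) with CTNNB1 and fell by 1.03 (SE 0.11, adjusted p = 0.000179) with shAPC, and it was lower in GFP than in shNT1 by a log2 difference of -2.56 (SE 0.11, adjusted p = 9.4e-06).

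IFI6, which restrains apoptosis and flavivirus replication, showed the same order at a smaller size. It was at 3.36, 3.52 and 3.32 TPM in GFP, 6.90, 5.70 and 5.38 in CTNNB1, 14.5, 12.6 and 11.8 in shNT1, and 10.0, 9.74 and 8.78 in shAPC. Again no group overlapped another. IFI6 rose by 0.66 (SE 0.10, adjusted p = 0.00119) with CTNNB1 and fell by 0.41 (SE 0.09, adjusted p = 0.00897) with shAPC.

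IFI44, an interferon-induced cytoplasmic protein, was at 7.83, 6.56 and 7.66 TPM in GFP, 12.8, 9.71 and 9.43 in CTNNB1, 18.2, 18.2 and 18.9 in shNT1, and 12.4, 13.0 and 14.0 in shAPC. The shNT1 libraries were highest by a wide gap, and CTNNB1 lay above GFP. IFI44 rose by 0.47 (SE 0.11, adjusted p = 0.0157; 0.0629 without the filter and 0.0644 without GFP replicate 2) with CTNNB1 and fell by 0.46 (SE 0.07, adjusted p = 0.00116) with shAPC.

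ISG15, the ubiquitin-like modifier, was at 41.2, 51.4 and 51.8 TPM in GFP, 61.2, 54.5 and 50.8 in CTNNB1, 67.1, 68.0 and 88.4 in shNT1, and 58.7, 62.6 and 55.2 in shAPC. GFP and CTNNB1 overlapped, and shAPC lay below shNT1. ISG15 fell by 0.33 (SE 0.10, adjusted p = 0.0397) with shAPC, a call lost in 3 of 6 alternative settings and with 4 of the 6 libraries left out in turn, and differed by 0.21 (SE 0.10, adjusted p = 0.15) in the CTNNB1 arm. ISG20, an RNA exonuclease, ranged from 0.690 to 1.94 TPM, and IFI35 from 7.63 to 10.3 TPM. Neither was called in either arm.

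The membrane restriction factors differed among themselves. IFITM3, which blocks virus fusion in endosomes and lies on chromosome 11 at 319669 to 327537, had the largest rise of the tested members in CTNNB1 on the log2(TPM + 1) scale, while by the ratio of mean TPM IFIT2 (2.63) and IFIT1 (2.58) stood slightly above it. It was at 12.5, 14.3 and 13.0 TPM in GFP, 35.8, 33.6 and 32.4 in CTNNB1, 65.0, 70.1 and 48.4 in shNT1, and 61.8, 67.0 and 65.3 in shAPC. CTNNB1 lay between GFP and the hairpin groups, which overlapped. IFITM3 rose by 1.29 (SE 0.07, adjusted p = 3.85e-06) in CTNNB1, to 2.56 times the GFP mean, and differed by 0.10 (SE 0.11, adjusted p = 0.583) in shAPC.

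IFITM2, its close relative, was the single member of the 26 tested in both arms to be called higher in both, where 4.08% of all genes were. It was at 33.6, 36.7 and 29.7 TPM in GFP, 62.6, 57.3 and 54.9 in CTNNB1, 72.5, 78.2 and 54.5 in shNT1, and 93.5, 80.4 and 87.4 in shAPC. GFP was lowest and shAPC highest, and shNT1 replicate 3 lay far below the other 2 shNT1 libraries. IFITM2 rose by 0.79 (SE 0.08, adjusted p = 0.00014) in CTNNB1 and by 0.36 (SE 0.11, adjusted p = 0.049) in shAPC. Without shNT1 replicate 3 the latter was 0.20 (adjusted p = 0.0612), and the call was also lost without any 1 of the shAPC libraries.

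IFITM1, the plasma membrane relative, was at 0.187, 0.204 and 0 TPM in GFP, 2.40, 1.58 and 0.199 in CTNNB1, 4.58, 6.41 and 3.80 in shNT1, and 4.68, 4.01 and 4.41 in shAPC. CTNNB1 replicate 3 lay within the GFP range, and the hairpin groups overlapped at a higher level. IFITM1 differed by -0.12 (SE 0.14, adjusted p = 0.581) in shAPC and was lower in GFP than in shNT1 by -2.37 (SE 0.17, adjusted p = 4.81e-05). IFITM1 and IFITM2 share 351 exon bases on the same strand, so reads may have been split between them.

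BST2, or tetherin, which holds budding virus at the cell surface, was at 61.0, 71.1 and 75.4 TPM in GFP, 79.8, 85.0 and 82.0 in CTNNB1, 112, 115 and 112 in shNT1, and 101, 108 and 100.1 in shAPC. No group overlapped another. BST2 rose by 0.25 (SE 0.07, adjusted p = 0.036) in CTNNB1, a call lost without the filter (0.091) and under median-ratio scaling (0.128) and without GFP replicate 1 or 2 or CTNNB1 replicate 2 or 3, and differed by -0.14 (SE 0.05, adjusted p = 0.0788) in shAPC.

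**Figure D3:**
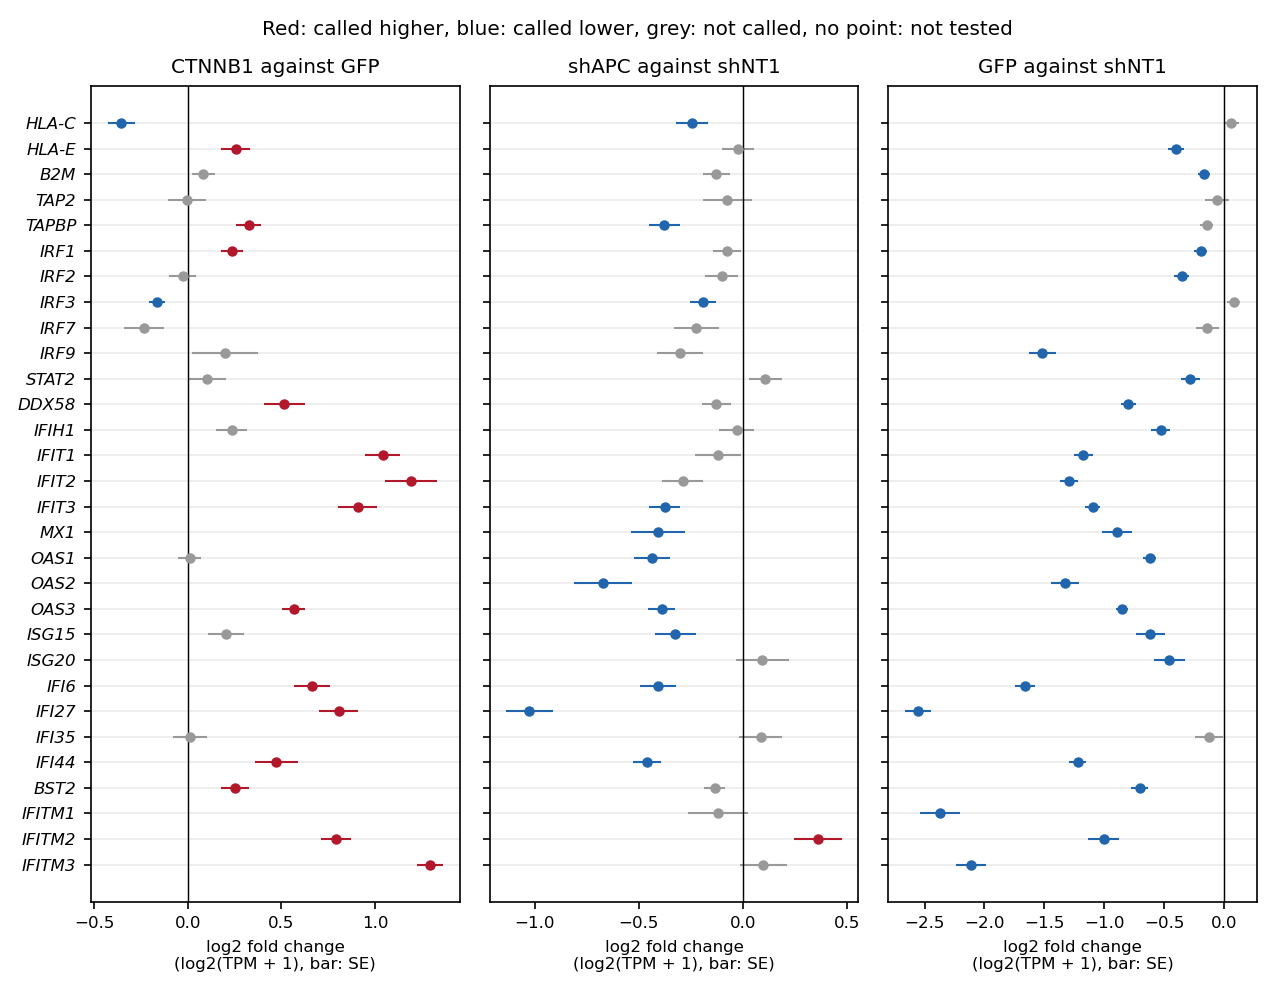
Log2 fold changes of the 30 members tested in any pairwise comparison, with standard errors, in 3 panels whose horizontal axes differ in range; red was called higher, blue lower, grey not called, and no point means not tested. Of the members tested, 14 were called higher with CTNNB1 (16.3% of all genes were), 12 lower with shAPC (14.9%) and 24 lower in GFP than in shNT1 (23.2%). Without members that passed the filter through shNT1 alone, 11 of 29 were lower with shAPC and 20 of 26 in GFP.

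Set side by side, the arms moved several members in opposite directions. Of the 26 members tested in both arms, 6 were called higher with CTNNB1 and lower with shAPC, namely TAPBP, IFIT3, OAS3, IFI6, IFI27 and IFI44; over all 11556 genes tested in both arms, 107 were, which is 0.926%. IFITM2 was called higher in both, where 4.08% of all genes were, and HLA-C and IRF3 were called lower in both, where 3.24% were. The difference of the effects, CTNNB1 minus shAPC, was called positive for 14 of 29 members, where 13.3% of all 11741 genes were. By limma it was called negative for none, where 2.76% of all genes were, and none was negative at an unadjusted p under 0.05. The median difference was 0.45 over the members and 0.11 over all genes, and median-ratio scaling moved the latter to 0.00 and left 11 members called (82.8% of all calls were positive, and 54.7% under that scaling). Under that scaling 786 of all 11738 genes tested were called positive. IFI27 had the largest difference, 1.83 (SE 0.16, adjusted p = 1.37e-05), followed by IFIT2 with 1.48 (SE 0.19, adjusted p = 0.00023) and IFIT3 with 1.28 (SE 0.14, adjusted p = 7.46e-05).

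**Figure D4:**
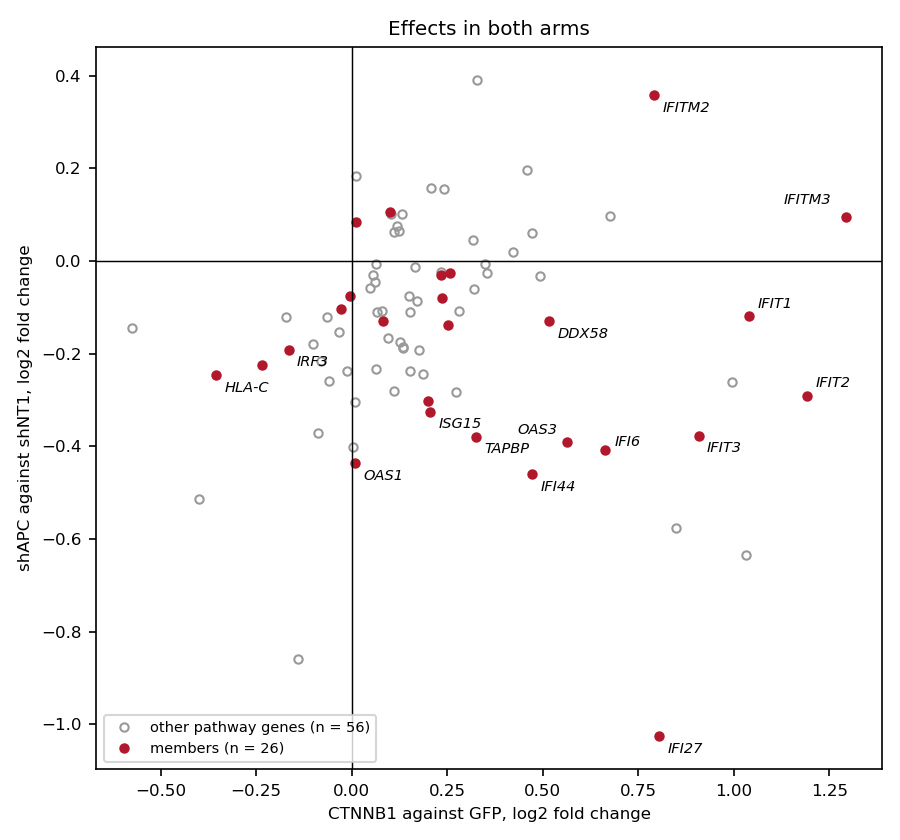
Log2 fold change of CTNNB1 against GFP (horizontal) and shAPC against shNT1 (vertical) for the 26 members (red) and the 56 other pathway genes (open circles) tested in both arms. IFI27 lies farthest to the lower right, at 0.80 and -1.03, and IFITM2 lies above 0 on both axes, at 0.79 and 0.36.

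The order of the 4 group means was counted over the same 26 members. GFP was lowest and shNT1 highest in 15 of them, where 11.9% of all 11556 genes showed this pattern. Libraries within a group differed. CTNNB1 replicate 1 was the highest of its group in 17 of the 26 members, where it was in 55.0% of all genes, and replicate 3 the lowest in 19, where it was in 45.4%. GFP replicate 3 was the highest of its group in 16 members (46.9% of all genes) and shAPC replicate 1 in 14 (58.5%), while shNT1 replicate 3 was highest in 10 (55.5%). Without CTNNB1 replicate 1, 13 members were called higher in CTNNB1 against GFP, and without CTNNB1 replicate 3 also 13.

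Of 97 further genes of the pathway, 17 of 56 tested were called higher (16.3% of all genes were) and 3 lower (7.16%) with CTNNB1. With shAPC, 2 of 60 were called higher (7.24%) and 15 lower (14.9%). In GFP against shNT1, 5 of 58 were called higher (9.92%) and 28 lower (23.2%). The 3 lower calls with CTNNB1 and the 5 higher calls in GFP lie near the share of all genes. Ligands were scarce: IFNA1, IFNK and IFNG were listed at 0 in all 12 libraries and 7 of the 8 ligands stayed under 1 TPM in every one. IFNE, an epithelial type I interferon, was the exception, at 0.659 ± 0.307 TPM in GFP, 1.03 ± 0.44 in CTNNB1, 1.71 ± 0.89 in shNT1 and 2.00 ± 0.32 in shAPC. Of 10 class II presentation genes, 6 were listed at 0 in all libraries, among them CIITA, their master regulator, and HLA-DRA.

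Several of the pathway genes named by size of change were effectors. DDX60, a helicase-like antiviral factor, averaged 2.06 ± 0.27 TPM in GFP, 5.26 ± 0.66 in CTNNB1, 10.3 ± 1.1 in shNT1 and 6.26 ± 0.45 in shAPC, rising by 1.03 (SE 0.11, adjusted p = 0.000184) in the first arm and falling by 0.63 (SE 0.09, adjusted p = 0.00111) in the second. OASL, an OAS relative without the enzyme activity, averaged 7.24 ± 1.00, 13.8 ± 1.6, 22.4 ± 2.1 and 14.7 ± 1.1 TPM in the same order of groups, rising by 0.85 (SE 0.11, adjusted p = 0.000531) and falling by 0.58 (SE 0.08, adjusted p = 0.00113). HERC6 rose by 0.99 (SE 0.12, adjusted p = 0.00044) with CTNNB1 and differed by -0.26 (SE 0.11, adjusted p = 0.108) with shAPC.

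Guanylate-binding proteins and the invariant chain were also among them. GBP2, an interferon-gamma-induced GTPase, was at 6.78, 6.44 and 7.79 TPM in GFP and averaged 6.27 ± 0.74 in CTNNB1, 7.51 ± 0.31 in shNT1 and 3.70 ± 0.38 in shAPC, and fell by 0.86 (SE 0.09, adjusted p = 0.000149) with shAPC. Its difference with CTNNB1 was -0.14 (SE 0.10, adjusted p = 0.333). GBP3 fell in both, by 0.40 (SE 0.08, adjusted p = 0.00728) with CTNNB1 and by 0.51 (SE 0.08, adjusted p = 0.00135) with shAPC. CD74, the class II invariant chain, rose by 0.92 (SE 0.15, adjusted p = 0.00241) with shAPC, from 1.07 ± 0.41 to 2.86 ± 0.21 TPM. TLR3, an endosomal RNA sensor, rose by 0.68 (SE 0.10, adjusted p = 0.00152) and STING1, the adaptor of DNA sensing, by 0.35 (SE 0.09, adjusted p = 0.022) with CTNNB1. The chemokine gene CXCL11 averaged 0.534 ± 0.046 TPM in GFP and 1.75 ± 0.34 in shNT1, and passed the filter in that comparison through shNT1 alone.

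The authors' deposited tables were read beside these calls. At an adjusted p under 0.05, the authors' deposited table for CTNNB1 holds 10 of the 26 members tested here as higher and 2 as lower, and the same call was made here for all 12, with 4 members called only here. Those 4 have limma adjusted p-values there of 0.0561 (TAPBP), 0.0892 (IFI44), 0.0924 (HLA-E) and 0.32 (BST2). The authors' deposited table for APC holds 7 of the 30 as lower and 0 as higher, all 7 also called here, with 6 called only here. Those 6 are HLA-C, IRF3, MX1, ISG15, IFI6 (limma adjusted p = 0.0873 there) and IFITM2. Of the 6 members called here higher with CTNNB1 and lower with shAPC, only IFIT3, OAS3 and IFI27 have both calls in the authors' tables. No call had the opposite sign. OAS2 and TAP1, too weak for the filter used here in the CTNNB1 arm, have log2 fold changes of 1.55 (adjusted p = 0.0138) and 0.62 (adjusted p = 0.0486) in the authors' deposited table.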

How the data were processed

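RNA was sequenced from 12 HT-29 libraries prepared with an mRNA kit, per the labels' protocols. The submitters' processing notes name STAR 2.7.3a, hg38 and limma, and the quantifier and annotation are not given in the sources used here. The authors deposited a table of TPM, which keeps no depth, so depth per library is unknown. Between 14756 and 16186 genes were above 0 per library. The authors also deposited limma tables with log2 fold changes, p-values and adjusted p-values, and, per the file headers, columns of moderated t and of a log-odds score, both left aside.

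Members, lists and comparisons were chosen with earlier results of these data known. Log2(TPM + 1) values were fitted with limma 3.58.1 in R 4.3.3, with a mean-variance trend, for genes whose mean TPM reached 1, with 6 libraries per pairwise comparison and 12 for the difference between arms. All tests are two-sided. The code of the fit was run on simulated data with a preset depth and spread, which does not test the calls made here.

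Values in every library are given for members called in either arm or among the 6 largest changes of a pairwise comparison, and other pathway genes are named when called and among the 5 largest. 1 such gene is not reported here. Promoters came from RefSeq GRCh38.p14 and gene positions from GENCODE v29. Alternatives were a replicate block, log2(TPM + 0.1), no filter, a TPM minimum of 5 on the mean, median-ratio scaling, 1 fit of all 4 groups (not for the difference between arms) and leaving out each library.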

Additional observations from a re-analysis of the deposited data

Results flagged for a closer look

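The CTNNB1 and shAPC effects differed for 14 of 29 members by the interaction test in limma (adjusted p under 0.05, n = 3 per group). All 14 differences were positive, where 13.3% of all 11741 genes were called positive. On the log2 scale, the CTNNB1 effect minus the shAPC effect was 0.70 for TAPBP, 0.31 for IRF1, 0.65 for DDX58, 1.16 for IFIT1, 1.48 for IFIT2, 1.28 for IFIT3, 0.45 for OAS1, 0.96 for OAS3, 0.53 for ISG15, 1.07 for IFI6, 1.83 for IFI27, 0.93 for IFI44, 0.39 for BST2 and 1.20 for IFITM3. The calls of IRF1, ISG15 and BST2 were lost in at least 1 alternative.

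Among other pathway genes, the difference was 0.58 for TLR3, 1.42 for OASL, 0.72 for GBP2, 1.26 for HERC6 and 1.67 for DDX60. The arms differ in vector, collection day and doxycycline, which cannot be told apart from the perturbation in these differences.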

How the results depend on the processing

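No called member changed sign in any alternative. A call was counted as kept over the alternatives and left-out libraries in which the member was tested. Of the 14 members called higher with CTNNB1, 10 kept it throughout (TAPBP, DDX58, IFIT1, IFIT2, IFIT3, OAS3, IFI6, IFI27, IFITM2 and IFITM3). HLA-C did so among the 2 called lower. IFIT1, IFI6 and IFI27 were not tested in that arm at the TPM minimum of 5. The call was also kept by 8 of the 12 called lower with shAPC, OAS2 among them. The same held for 20 of the 24 called lower in GFP against shNT1, all but B2M, IRF1, STAT2 and ISG20. It also held for 11 of the 14 differences between arms. Those 20 include MX1, IFITM1 and OAS2, which passed the filter through shNT1 alone, and OAS2 was tested in only 3 of the 6 left-out fits. The count lower with CTNNB1 ranged from 1 to 2 when a library was left out, IRF3 being lost without GFP replicate 1, 2 or 3 or CTNNB1 replicate 2. The count higher with shAPC, 1 for IFITM2, was 0 with log2(TPM + 0.1), without a filter and under median-ratio scaling, and ranged from 0 to 1 when a library was left out, being 0 without shNT1 replicate 3 or any shAPC replicate. The count higher in GFP against shNT1, 0 at first, was 1 under median-ratio scaling (IRF3, 0.16, adjusted p = 0.028) and ranged from 0 to 1 when a library was left out, the 1 being IRF3 without shNT1 replicate 3. The cause was not tested.

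With a replicate block, 13 members were called higher and 2 lower with CTNNB1, 1 higher and 8 lower with shAPC, 0 higher and 23 lower in GFP against shNT1, and 13 higher for the difference between arms. Over all genes tested, the block gave 1959 higher and 936 lower of 11624 with CTNNB1 and 614 and 1153 of 11834 with shAPC. It gave 1095 and 2423 of 11659 in GFP against shNT1, and 919 higher of 11741 for the difference between arms. Deviations of same-numbered libraries correlated at 0.22, 0.07 and 0.11 between GFP and CTNNB1 and at -0.15, -0.01 and -0.21 between shNT1 and shAPC. Those of differently numbered libraries correlated at -0.18 to 0.07 and at -0.12 to 0.20. The labels do not say what a replicate number stands for, so the main fits had no block. Pairing within the CTNNB1 arm stays possible. TPM gives no counts, so no counting error could be attached to weak members such as OAS2 and IFITM1.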
